A study of Danio rerio with 12 samples.

Results

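Normal regrowth of the larval caudal fin was followed over 1 day by comparing vehicle-treated fins at 3 days post amputation (dpa) with vehicle-treated fins at 2 dpa. The 2 groups were chosen by the titles of the arrays alone and hold 3 arrays each, 6 of the 12 arrays of the series. Both groups were zebrafish larvae of the AB strain whose caudal fin was cut at 2 days post fertilization (dpf) and which then spent 1 h in water with DMSO, the solvent used as vehicle. The regrown tissue was collected from larvae of 5 dpf for the 3 dpa group and of 4 dpf for the 2 dpa group, so the day of regrowth and the age of the larva cannot be told apart. The other 6 arrays hold fins treated in the same way with 0.5 ng/mL TCDD, a dioxin that activates the aryl hydrocarbon receptor, 3 at 3 dpa and 3 at 2 dpa. For each array 150 fins were pooled, so p-values measure the spread between pools and not between larvae, and in pooled tissue fewer cells of a type and less RNA per cell cannot be told apart.

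After amputation, a fin is first closed by a wound epidermis, beneath which a blastema of proliferating mesenchymal cells forms. Wnt, FGF, BMP and retinoic acid signals pass between the epidermis and the blastema and keep the blastema dividing while more proximal cells return to making fin matrix. In the larva the organ is a fold of skin stiffened by actinotrichia, fibres of collagen and actinodin proteins, and it also holds nerves, vessels, sensory organs and visiting leukocytes.

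Values are log2 of the deposited ratios, whose median over the 12 arrays is 1 for 12018 of 15502 probe sets and below 1 for the others. A value shows where an array stands for that probe set, and levels of different genes cannot be compared. A difference is the mean of the 3 dpa arrays minus the mean of the 2 dpa arrays on this scale, with its standard error (SE) from a limma model of all 12 arrays. The labelled tissue was checked against its defining genes. The ratios hold no signal level, so the check is indirect. A median ratio of 1, as opposed to one below 1, was found for all probe sets of 16 of 19 fin fold genes and of 50 of 57 keratin and epidermal genes. The same held for 7 of 19 red blood cell genes, 13 of 37 neural and eye genes, 19 of 54 liver, gut, pancreas and yolk genes and 24 of 52 skeletal muscle genes, but also for 27 of 30 neutrophil and macrophage genes, 15 of 21 pigment cell genes and 12 of 18 ionocyte and mucous cell genes. Over all 8793 genes with a symbol it held for 6804 (77.4%).

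The 6 arrays were not equally alike. Vehicle 3 dpa replicate 3 stood at least 1 (log2, that is 2-fold) from the median of the other 5 vehicle arrays for 807 probe sets, 362 above and 445 below, against 41 to 212 for each of the others. Its correlation with the other arrays of its own day was 0.20 and 0.11, over 12018 probe sets with a median ratio of 1. Pairs of vehicle arrays from the same day had a median correlation of 0.32 (6 pairs, from 0.11 to 0.63), and pairs from different days one of 0.30 (9 pairs, from −0.03 to 0.49). The 18 hybridisation control probe sets, which read labelled transcripts added for hybridisation and not the fin, averaged 0.26, 0.26 and 0.29 on the 3 dpa arrays, against −0.14, −0.01 and −0.02 on the 2 dpa arrays. Within the vehicle fins, whatever moved these controls and the day of regrowth cannot be told apart. Gene differences that moved by over 1.5 times without that replicate are given with and without it.

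No transcript met the threshold for a change between the days. Of 15502 probe sets, 0 were called by limma at a Benjamini-Hochberg adjusted p under 0.05 (0%), and the lowest adjusted p was 1. At an unadjusted p under 0.05 there were 578 probe sets (3.73%), 319 higher at 3 dpa (2.06%) and 259 lower (1.67%), where evenly spread p-values would give 775.1. The lowest unadjusted p was 0.0004171. A fit to the 6 vehicle arrays alone also called 0, with 893 at an unadjusted p under 0.05, and leaving out any 1 of the 12 arrays gave 0 calls and between 315 and 883 such probe sets. For the vehicle arrays the count was 315 when 3 dpa replicate 3 was left out, 349 for 2 dpa replicate 1 and 883 for 3 dpa replicate 2. In the plot of p-values the counts lay below the even spread at the low end and above it at the high end.

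**Figure D1:**
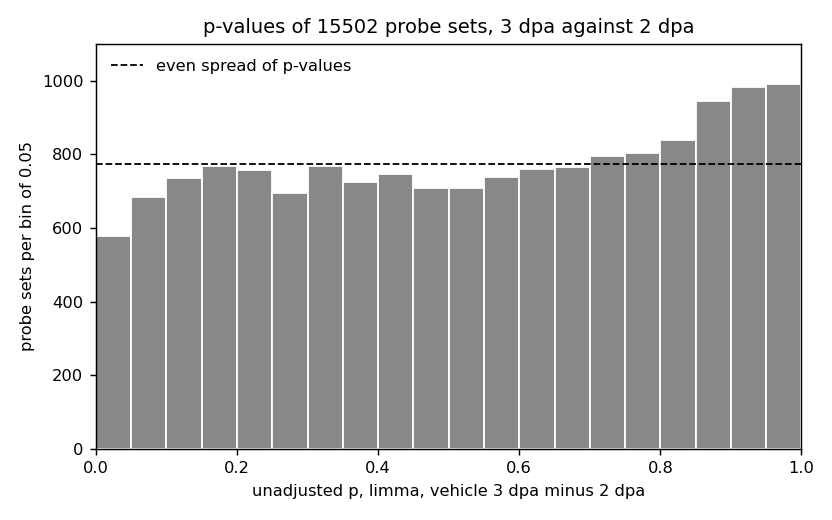
Number of probe sets (y axis) in bins of the unadjusted limma p (x axis) for vehicle 3 dpa minus vehicle 2 dpa, with a dashed line at 775.1 per bin for evenly spread p-values. The first bin holds 578 probe sets and the last 992.

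The 3 arrays of 3 dpa all lay above the 3 of 2 dpa for 908 probe sets (5.86%) and all below for 812 (5.24%), together 11.1% of those tested. Counted by gene, with the probe sets of a gene averaged, 325 of 8793 genes (3.7%) lay all above and 566 (6.44%) all below. A probe set at an unadjusted p under 0.05 was found in 346 genes (3.93%), 132 of them higher (1.5%) and 214 lower (2.43%). These shares are the background for the gene lists described here.

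Much of the transcriptome could be bounded. The 95% interval of the difference lay inside 1.5-fold in either direction for 9004 probe sets (58.1%) and inside 2-fold for 13626 (87.9%). Probe sets with a median ratio below 1, which had a median half-width of the interval of 0.23 against 0.43 for those with a median of 1, made up a large part of these, with 3131 of 3484 (89.9%) inside 1.5-fold against 5873 of 12018 (48.9%) of those with a median of 1. The median difference over all probe sets was 0.00, and in 10843 (69.9%) the difference was smaller than the SD between pools of 1 day. The middle value of the interval's half-width was 0.38, a fold of about 1.3 either way that the arrays could not resolve for a typical probe set.

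A difference of at least 1 (log2, 2-fold) was seen for 35 probe sets (0.226%), 22 higher and 13 lower at 3 dpa, and in 19 of these the groups overlapped. Of the 16 that did not overlap (0.103%), 8 have 1 gene symbol that is not a clone name, and each was given with all its probe sets. None was called by limma (adjusted p = 1 for each). The genes higher at 3 dpa were lamb4, slc14a2 and per2, and those lower were icn, septin7a, dsc2l, stau2 and pafah1b1a.

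The gene lamb4 (Entrez 286831) encodes a beta chain of laminin, a protein of basement membranes. It read 0.80, 0.84 and 2.37 on the 3 dpa arrays, against −0.10, 0.35 and 0.30 on the 2 dpa arrays. Every 3 dpa pool was above every 2 dpa pool, and replicate 3 of 3 dpa was far above the other pools. The difference was 1.15 (SE 0.35, unadjusted p = 0.008246, limma), or 2.22-fold (95% interval from 1.29 to 3.83), and it was 0.64 without that array. In TCDD fins the same probe set differed by −0.06 between the days.

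The urea transporter gene slc14a2 (Entrez 326634) read 1.74, 0.26 and 2.74 at 3 dpa, against −0.66, −0.09 and 0.09 at 2 dpa. The lowest 3 dpa pool, replicate 2, was close to the highest 2 dpa pool. The difference was 1.80 (SE 0.56, unadjusted p = 0.009537, limma), or 3.48-fold (95% interval from 1.46 to 8.30), and it was 1.22 without replicate 3 of 3 dpa. TCDD fins read lower at 3 dpa, by −0.80, and the difference between the exposures had an unadjusted p of 0.0086 with an adjusted p of 0.9999 in limma.

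The clock gene per2 (Entrez 140633), a light-responsive member of the period family in zebrafish, read −1.41, 2.16 and −1.24 at 3 dpa, against −1.52, −2.62 and −3.42 at 2 dpa. One pool of 3 dpa, replicate 2, was high, and the lowest 3 dpa pool, at −1.41, was close to the highest 2 dpa pool, at −1.52. The difference was 2.36 (SE 1.21, unadjusted p = 0.07868, limma) and 1.196 without that pool. A second per2 probe set differed by 0.22.

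Of the genes lower at 3 dpa, icn (Entrez 336655), which encodes ictacalcin, a calcium-binding protein of fish epithelia, read −0.51, −0.87 and −2.04 at 3 dpa, against 0.13, −0.13 and −0.41 at 2 dpa. Both of its probe sets separated the days, with differences of −1.0006 (SE 0.34, unadjusted p = 0.0147, limma) and −0.83. The names of these probe sets differ only in a suffix, so they may read the same target and are not taken as independent. Without replicate 3 of 3 dpa the first was −0.55. In TCDD fins they differed by −0.04 and −0.04.

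The 4 other genes all read lowest in 1 pool, replicate 3 of 3 dpa. The desmosomal cadherin gene dsc2l (Entrez 560091) read −0.04, −0.42 and −1.48 at 3 dpa, against 0.47, 0.03 and 0.69 at 2 dpa, a difference of −1.05 (SE 0.60) and of −0.63 without replicate 3 of 3 dpa. The cytoskeletal gene septin7a (Entrez 394136) read −0.19, −0.41 and −1.41 at 3 dpa, against 0.71, 0.41 and 0.16 at 2 dpa, a difference of −1.09 (SE 0.60) and of −0.72 without that replicate. The RNA-binding protein gene stau2 (Entrez 393899) read −0.01, 0.01 and −3.07 at 3 dpa, against 0.28, 0.30 and 0.32 at 2 dpa. In all 3 genes the days did not overlap, but the third 3 dpa pool was the lowest of the 6 vehicle pools by a wide margin. The difference of stau2 was −1.32 (SE 0.77) with that pool and −0.30 without it. The dynein regulator gene pafah1b1a (Entrez 394246) read −0.12, −0.29 and −2.43 at 3 dpa, against 0.25, 0.11 and 0.11 at 2 dpa, a difference of −1.10 (SE 0.73) and of −0.36 without that pool. With the level of the hybridisation controls as a covariate, stau2 and pafah1b1a differed by 0.15 and 0.22. That adjustment rests largely on TCDD 3 dpa replicate 2, whose controls read 0.34 against −0.07 and −0.08 in its group. On that array stau2 and pafah1b1a read −2.03 and −2.01, the lowest of its group. The unadjusted p (limma) of these 4 lay between 0.1009 and 0.163. Other probe sets of dsc2l (−0.08), septin7a (0.23 and −0.04) and pafah1b1a (−0.08) showed no such difference.

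**Figure D2:**
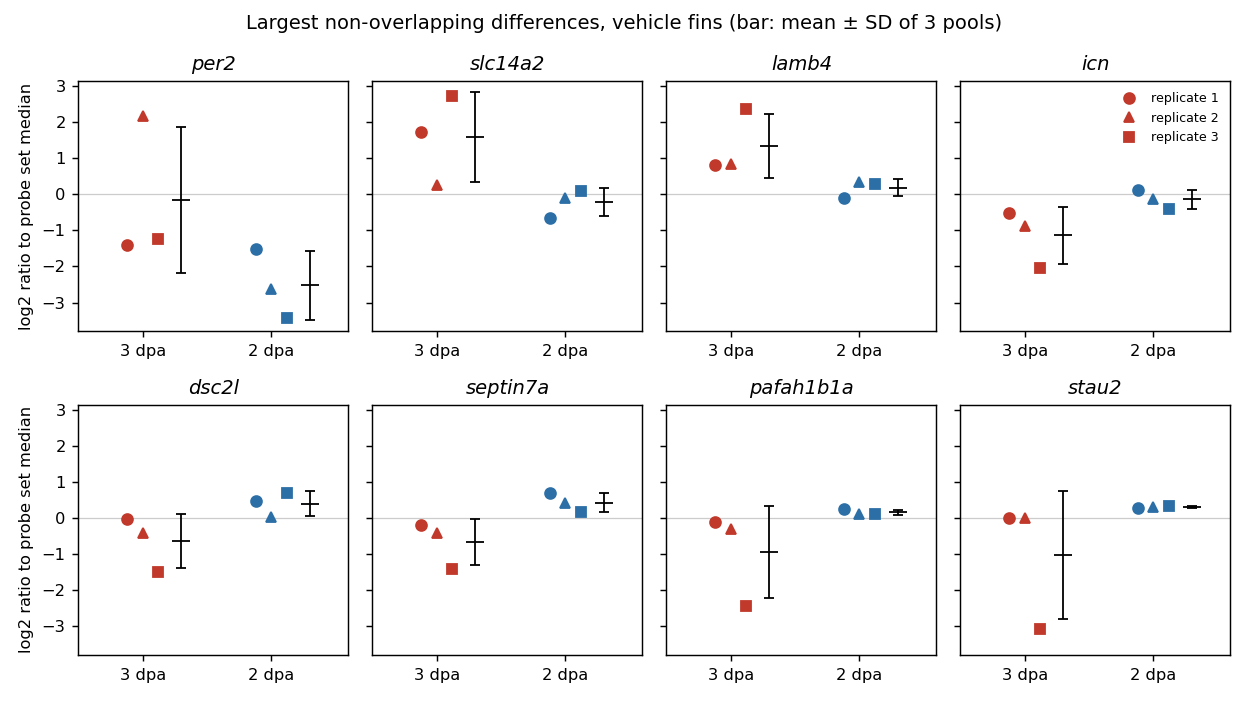
Log2 ratio to the probe set's median (y axis) on each vehicle array for the 8 genes with the largest differences without overlap, 3 dpa left of 2 dpa, with symbols for the replicate numbers and a bar for the mean ± SD of 3 pools. In all 8 genes the 3 dpa points lie on one side of the 2 dpa points, and in lamb4, slc14a2, icn, dsc2l, septin7a, pafah1b1a and stau2 the square of 3 dpa replicate 3 lies farthest out.

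To describe groups of genes, 42 lists were drawn up, 31 for processes of a regrowing fin and 11 for other cell types. A member's difference is the mean over its probe sets. Over all 8793 genes the median difference was −0.01, 4850 genes (55.2%) were lower at 3 dpa, and 4736 (53.9%) had every interval inside 1.5-fold. No member of any list was called (limma, adjusted p of 1), so the counts of members describe direction and spread. The middle log2 ratio of a list's genes on an array is called its level there. Replicate 3 of 3 dpa had the lowest level of the 6 vehicle arrays in 25 of the 42 lists and the highest in 6, while each other array was lowest in 1 to 5. Without replicate 3 of 3 dpa the sign turned for 14 list medians, and quantile normalization turned the sign of 10 with medians between −0.03 and 0.03, among them the Hox, Notch, Hedgehog, glycolysis, cholesterol, pigment and retinoic acid lists.

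**Figure D3:**
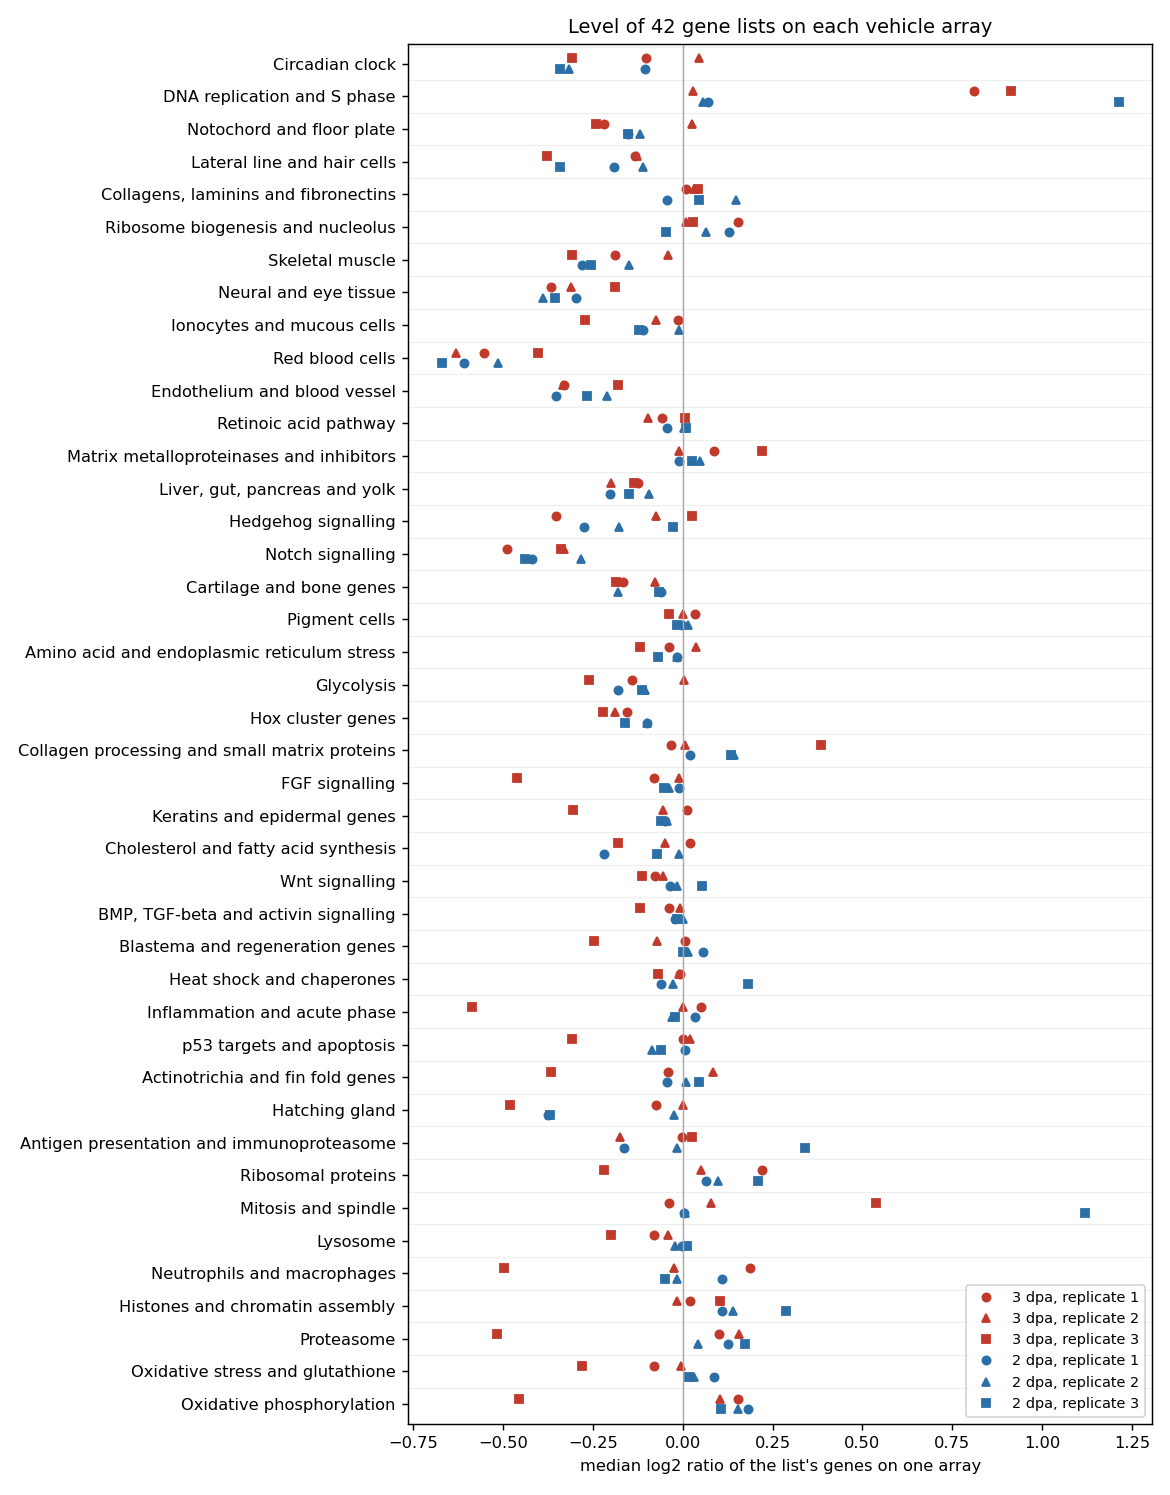
Median log2 ratio of each list's genes (x axis) on each of the 6 vehicle arrays, for 42 lists (rows, ordered by the difference between the days, most positive at the top), with 3 dpa points above 2 dpa points. The square of 3 dpa replicate 3 lies left of the other 5 points in 25 lists, and DNA replication and mitosis spread most among pools of the same day.

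The actinodin genes and1 and and2, which encode structural proteins of the actinotrichia, differed by 0.02 (95% interval from −0.35 to 0.39) and 0.12 (from −0.20 to 0.45). The and1 arrays read 0.09, 0.06 and 0.10 at 3 dpa, against −0.04, 0.00 and 0.22 at 2 dpa. For and2 they read 0.20, 0.14 and 0.23 at 3 dpa, against −0.03, 0.10 and 0.12 at 2 dpa, wholly above. Both genes were thus bounded within 1.5-fold, as was prrx1a, a transcription factor gene of fin mesenchyme, at −0.18 (from −0.58 to 0.21). Of 19 actinotrichia and fin fold genes, 11 were lower and 8 higher at 3 dpa, with a median difference of −0.10, and 5 were inside 1.5-fold (26.3%, against 53.9% of all genes).

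The members with the lowest p in this list were transcription factors of the distal fin. The homeobox gene dlx5a read −0.15, 0.11 and −1.14 at 3 dpa, against 0.29, 0.26 and 0.23 at 2 dpa, a difference of −0.65 (SE 0.30) that was −0.28 without replicate 3 of 3 dpa. The distal Hox gene hoxa13b read −0.13, −0.45 and −0.43 at 3 dpa, against 0.12, −0.02 and 0.03 at 2 dpa, a difference of −0.38 (SE 0.20) that was 0.01 with the hybridisation controls as a covariate. Its paralogue hoxd13a differed by −0.685 (SE 0.43) and by −0.41 without replicate 3 of 3 dpa. These 3 lay wholly below at 3 dpa, with unadjusted p values (limma) of 0.05497, 0.08446 and 0.1443. A lower p than that of hoxd13a, 0.09672 (limma), belonged to the homeobox gene dlx3b. It differed by −0.40 (SE 0.22), and its days overlapped. Of the 19 genes in this list, 4 lay wholly below and 2 wholly above at 3 dpa (background 6.44% and 3.7%).

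Of 42 blastema and regeneration genes, 25 were lower and 17 higher at 3 dpa, with a median difference of −0.07, and 11 were inside 1.5-fold. The blastema transcription factor gene msx2b read −0.16, −0.22 and −1.57 at 3 dpa, against 0.14, 0.28 and 0.25 at 2 dpa, a difference of −0.88 (SE 0.37, unadjusted p = 0.04047, limma). Without replicate 3 of 3 dpa it was −0.42. The mesenchymal transcription factor gene twist1a read 0.02, −0.13 and −0.02 at 3 dpa, against 0.37, 0.05 and 0.59 at 2 dpa, with a difference of −0.38 (SE 0.15) and of −0.25 without replicate 3 of 2 dpa. The growth factor gene fgf3 overlapped between the days at −0.36 (SE 0.16), and it read −0.76 in TCDD fins. The related msx gene msx1b differed by 0.01 (from −0.35 to 0.37).

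Of 27 collagens, laminins and fibronectins, 18 were higher and 9 lower at 3 dpa, with a median difference of 0.04 that was −0.01 without replicate 3 of 3 dpa. Both probe sets of the fibrillar collagen gene col1a1a, named for its role after the values were seen, were inside 1.5-fold at 0.14 and 0.07, and lama4, a laminin alpha chain gene, was too at −0.04 and 0.12. Apart from lamb4, the lowest p belonged to col6a3, a chain of collagen VI, at 0.55 (SE 0.29), which was 0.29 without replicate 3 of 3 dpa and −0.17 with the hybridisation controls as a covariate. Of 31 genes for collagen processing and small matrix proteins, 17 were lower and 14 higher. Here cthrc1b, a secreted collagen-associated protein gene, read 0.15, −0.01 and 0.18 at 3 dpa, against −0.40, −0.31 and −0.03 at 2 dpa, a difference of 0.35 (SE 0.12, unadjusted p = 0.01658, limma), while its second probe set read 0.05. The proteoglycan gene dcn (decorin) read 0.28, 0.38 and 0.57 at 3 dpa, against −0.15, 0.16 and 0.14 at 2 dpa.

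Among the 12 matrix metalloproteinases and inhibitors, 6 were lower and 6 higher. The membrane-bound protease gene mmp14a differed by 0.38 (SE 0.14, unadjusted p = 0.02423, limma) and the gelatinase gene mmp2 by −0.38 (SE 0.17, unadjusted p = 0.04739, limma). Both were measured by a second probe set that did not separate the days, at −0.11 and 0.06. A second membrane-bound protease gene, mmp14b, differed by 0.06 and was inside 1.5-fold. Of 24 cartilage and bone genes, 17 were lower, with a median of −0.01. The collagen-degrading protease gene ctsk differed by −0.52 (SE 0.21) and by −0.30 without replicate 3 of 3 dpa. The bone genes alpl and sost lay apart between the days at 0.51 (SE 0.33) and −0.38 (SE 0.19), with unadjusted p values (limma) of 0.1556 and 0.07362, and sost was −0.22 without replicate 3 of 2 dpa.

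The epidermis was represented by 57 keratin and epidermal genes, 31 lower and 26 higher at 3 dpa, with a median of −0.03. Of its defining genes, krt4, a keratin of the surface layer, read −0.05, 0.03 and −0.41 at 3 dpa, against 0.34, 0.17 and 0.00 at 2 dpa, a difference of −0.32 (SE 0.18). The basal keratin gene krt5 differed by 0.18 (from −0.88 to 1.24), and the adhesion gene epcam by 0.18 and −0.05. The basal epidermal regulator gene tp63 differed by 0.23 and 0.09, with the first probe set inside 1.5-fold. Beside icn, the connexin gene gjb8 read −0.06, −0.29 and −1.24 at 3 dpa, against 0.18, 0.26 and 0.97 at 2 dpa, a difference of −0.9996 (SE 0.40), and −0.65 without replicate 3 of 3 dpa. It also read lower at 3 dpa in TCDD fins, by −0.81. The tight junction gene cldn1 read −0.05, 0.10 and −0.25 at 3 dpa, against 0.22, 0.33 and 0.17 at 2 dpa. In this list 12 genes were inside 1.5-fold (21.1%), a smaller share than over all genes. Of the 57 genes, 5 lay wholly above and 4 wholly below at 3 dpa (background 3.7% and 6.44%), so separating genes went both ways.

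The signalling lists differed in the share of members that could be bounded, which was 53.9% over all genes. In the list of Hedgehog signalling, a pathway with a ligand made in the fin epidermis, 12 of 15 genes (80.0%) were inside 1.5-fold and 10 were lower at 3 dpa. The retinoic acid list had 16 of 23 (69.6%), Notch 17 of 29 (58.6%), BMP and TGF-beta 20 of 38 (52.6%), Wnt 18 of 45 (40.0%) and FGF 9 of 27 (33.3%). A median ratio of 1 in all probe sets, which went with wider intervals, was found for 9 of the 15 Hedgehog genes and 37 of the 45 Wnt genes. The Hedgehog ligand gene shha differed by 0.00 (from −0.40 to 0.40).

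In the BMP and TGF-beta list of 38 genes, 24 were lower and 14 higher. Of the 38, 4 were lower and 2 higher at an unadjusted p under 0.05 (background 2.43% and 1.5% of all genes). The receptor-regulated transcription factor gene smad5 read −0.07, 0.04 and −0.20 at 3 dpa, against 0.29, 0.19 and 0.34 at 2 dpa. Its difference was −0.35 (SE 0.10, unadjusted p = 0.004297, limma), and its second probe set, also wholly below at 3 dpa, read −0.24. TCDD fins differed by −0.11 and −0.32 on these 2 probe sets. The BMP target gene id2b read 0.21, −0.08 and −0.07 at 3 dpa, against 0.80, 0.18 and 0.68 at 2 dpa, a difference of −0.53 (SE 0.17), and −0.32 on its second probe set. The inhibitor genes bambia, a decoy receptor, and nog1, a secreted antagonist, differed by −0.40 (SE 0.16) and 0.48 (SE 0.17). The days lay apart for bambia and overlapped for nog1, whose probe set has a median ratio below 1.

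Of the Wnt genes, 29 were lower and 16 higher, with a median of −0.04. The receptor gene fzd2 read −0.23, −0.20 and −0.64 at 3 dpa, against −0.07, 0.03 and 0.30 at 2 dpa, a difference of −0.44 (SE 0.22). The receptor gene fzd7b differed by −0.64 (SE 0.36) on one probe set and −0.12 on the other. The Wnt target genes lef1 and axin2, named for their role, differed by 0.42 (from −0.90 to 1.75) and 0.06 (from −0.43 to 0.54). In the FGF list 21 of 27 genes were lower, with a median of −0.03, and the FGF antagonist gene il17rd read −0.29 (SE 0.14) with the days apart. The FGF feedback gene dusp6, also named for its role, differed by 0.22 and 0.17. In the retinoic acid list the degrading enzyme gene cyp26b1 had 4 probe sets at 0.22, 0.10, −0.02 and 0.00, and the receptor gene rarga read −0.53 (−0.26 without replicate 3 of 3 dpa) and −0.20. In the Notch list her8a, a repressor of the hairy family, differed by −0.33 (SE 0.10, unadjusted p = 0.01001, limma), on a probe set whose median ratio is below 1, and by −0.21 without replicate 2 of 2 dpa. A second her8a probe set, also with a median ratio below 1, differed by 0.04 and did not separate the days.

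Hox genes give a fin cell its position along the body. Of 42 measured, 24 were lower and 18 higher, 25 were inside 1.5-fold (59.5%), and 8 lay wholly below and 1 wholly above at 3 dpa, where the background is 6.44% and 3.7%. The gene hoxc6a read 0.27, 0.33 and 0.52 at 3 dpa, against −0.06, −0.03 and −0.10 at 2 dpa. The difference was 0.43 (SE 0.11, unadjusted p = 0.002221, limma), on a probe set whose median ratio is below 1. The genes hoxa10b, hoxa11b and hoxc9a read −0.52 (SE 0.18), −0.40 (SE 0.14) and −0.47 (SE 0.20), and a second hoxa10b probe set read −0.01. The first hoxa10b probe set was −0.29 without replicate 3 of 3 dpa, and hoxa11b was −0.23 without replicate 1 of 2 dpa. In TCDD fins hoxc9a differed by −0.48 and hoxa10b and hoxa11b by −0.08 and −0.13.

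Genes of cell division varied more between pools of the same day than between the days. DNA replication genes had list levels of 0.81, 0.03 and 0.91 on the 3 dpa arrays, against 0.07, 0.06 and 1.21 on the 2 dpa arrays. Replicates 1 and 3 of 3 dpa and replicate 3 of 2 dpa were high and the other 3 pools low. The helicase subunit gene mcm5 read 1.69, 0.00 and 2.22 at 3 dpa, against 0.37, 0.27 and 2.24 at 2 dpa. The replication clamp gene pcna read 1.05, 0.01 and 1.36 at 3 dpa, against −0.02, −0.11 and 1.72 at 2 dpa, and the helicase subunit gene mcm2 followed the same pools. These genes were named for their role. The members with the lowest p did not all follow these pools. On 1 probe set each, orc6, tk1 and pold3 were lower at 3 dpa, by −0.43, −0.40 and −0.35. The gene uhrf1 was higher by 0.12 on 1 probe set. The gene orc6 read 0.05, −0.06 and −0.48 at 3 dpa, against 0.44, 0.22 and 0.16 at 2 dpa. It lay wholly below at 3 dpa and was lowest in replicate 3 of 3 dpa. Of 46 replication genes, 31 were higher and 15 lower at 3 dpa with a median difference of 0.10, but 30 were lower with a median of −0.05 without replicate 3 of 3 dpa, and 3 were lower with a median of 0.50 without replicate 3 of 2 dpa. Only 3 of the 46 were inside 1.5-fold (6.52%), against 53.9% of all genes.

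Mitotic genes had list levels of −0.04, 0.08 and 0.54 at 3 dpa, against 0.00, 0.01 and 1.12 at 2 dpa, so that the third replicate of each day was high. Replicate 1 of 3 dpa was therefore high for replication and not for mitosis. The mitotic cyclin gene ccnb1 read 0.24, 0.54 and 1.19 at 3 dpa, against 0.77, 0.55 and 1.90 at 2 dpa, and the mitotic kinase gene plk1 read 0.18, 0.69 and 1.298, against 0.51, 0.47 and 1.84. The member with the lowest p, kif20a, did not follow these pools. It read −0.41, −1.82 and −1.84 at 3 dpa, against −0.23, −0.18 and −0.59 at 2 dpa. Its difference was −1.02 (SE 0.45, unadjusted p = 0.04492, limma), with the days overlapping, and −0.02 on its second probe set. Of 38 mitotic genes, 29 were lower at 3 dpa with a median of −0.11, 36 with a median of −0.27 without replicate 3 of 3 dpa, and 6 with a median of 0.12 without replicate 3 of 2 dpa. The replication median turned negative when any 1 of 4 arrays was left out (replicate 1 or 3 of 3 dpa, at −0.02 and −0.05, or replicate 1 or 2 of 2 dpa, at −0.09 each). The mitotic median turned positive without replicate 3 of 2 dpa and stayed negative without each of the other 5 vehicle arrays.

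Chromatin genes spread less. Of 26 histone and chromatin assembly genes, 18 were lower at 3 dpa, with a median of −0.13, and 9 lay wholly below and 0 wholly above (background 6.44% and 3.7%). The high mobility group gene hmgb2b, abundant in dividing cells, read 0.00, 0.00 and 0.08 at 3 dpa, against 0.16, 0.61 and 0.82 at 2 dpa, a difference of −0.50 (SE 0.15, unadjusted p = 0.006377, limma), and −0.21 on its second probe set. Its paralogue hmgb2a differed by −0.47 (SE 0.20), and by −0.31 without replicate 3 of 3 dpa. The histone-binding prothymosin gene ptmaa read 0.14, 0.24 and −0.05 at 3 dpa, against 0.57, 0.55 and 0.39 at 2 dpa. Its difference of −0.39 (SE 0.13, unadjusted p = 0.01204, limma) stood beside −0.36 in TCDD fins. In the other direction, 1 of 4 probe sets of hmga1a read 0.11, 0.28 and 0.78 at 3 dpa, against −0.01, −0.11 and 0.01 at 2 dpa. That probe set lay wholly above at 3 dpa (unadjusted p = 0.05301, limma). The median of this list was −0.17 without replicate 3 of 3 dpa and −0.10 without replicate 3 of 2 dpa.

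Genes of oxidative phosphorylation and of the proteasome were lower at 3 dpa in nearly all members, and the medians of both lists were close to 0 without replicate 3 of 3 dpa. Of 71 oxidative phosphorylation genes, 68 were lower (95.8%, against 55.2% of all genes), with a median of −0.22. The list levels were 0.15, 0.10 and −0.46 at 3 dpa, against 0.18, 0.15 and 0.11 at 2 dpa. Without replicate 3 of 3 dpa the median was −0.01 and 38 of 71 were lower. The complex I subunit gene ndufs5 read 0.19, 0.06 and −0.67 at 3 dpa, against 0.31, 0.31 and 0.38 at 2 dpa, a difference of −0.47 and of −0.21 without that pool. In TCDD fins 62 of the 71 were lower at 3 dpa with a median of −0.18. The list levels there were −0.12, −0.45 and −0.23 at 3 dpa, against 0.07, −0.09 and −0.27 at 2 dpa. The lowest of these arrays, TCDD 3 dpa replicate 2, was correlated with vehicle 3 dpa replicate 3 at 0.42.

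Proteasome genes followed the same pools, with levels of 0.10, 0.16 and −0.52 at 3 dpa, against 0.13, 0.04 and 0.17 at 2 dpa. Of 37 genes, 33 were lower, with a median of −0.17, and without replicate 3 of 3 dpa 18 were lower with a median of 0.01. The core subunit gene psma1 differed by −0.55 (SE 0.24) with that pool and −0.24 without it. In TCDD fins 34 of the 37 proteasome genes were lower at 3 dpa with a median of −0.18. The list levels there were −0.12, −0.27 and −0.27 at 3 dpa, against 0.02, −0.10 and −0.08 at 2 dpa. Of 72 ribosomal protein genes, 56 were lower in vehicle fins with a median of −0.11. Without vehicle 3 dpa replicate 3, 36 were lower with a median of 0.00. Even so, 49 of the 72 (68.1%) were inside 1.5-fold, among them rpl22 at 0.08 and rps15a at 0.10. Of 61 ribosome biogenesis genes, 36 were higher, with a median of 0.03, and the nucleolar gene utp20 differed by 0.51 (SE 0.23), and by 0.29 without replicate 3 of 2 dpa. Under quantile normalization the ribosome biogenesis median was −0.01.

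The medians of the lysosomal and antioxidant lists moved less when that pool was left out. Of 35 lysosomal genes, 25 were lower with a median of −0.12 (−0.07 without replicate 3 of 3 dpa). Of the 35 genes, 8 lay wholly below (background 6.44% of all genes). Lower at an unadjusted p under 0.05 were 6 of the 35 (background 2.43% of all genes). The lysosomal membrane gene cln3 read −0.50, −0.14 and −0.57 at 3 dpa, against −0.02, 0.19 and 0.19 at 2 dpa, a difference of −0.52 (SE 0.12, unadjusted p = 0.001669, limma). TCDD fins differed by 0.04, and the test of the difference between the exposures gave an unadjusted p of 0.0091 with an adjusted p of 0.9999 (limma). A subunit gene of the proton pump of the lysosome, atp6v1e1b, read −0.22, −0.19 and −0.43 at 3 dpa, against 0.33, 0.02 and 0.20 at 2 dpa. That was a difference of −0.47 (SE 0.14, unadjusted p = 0.007944, limma), beside −0.24 in TCDD fins.

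Of 33 oxidative stress and glutathione genes, 26 were lower with a median of −0.20 (−0.12 with 23 lower without replicate 3 of 3 dpa). In this list 8 genes lay wholly below and 0 wholly above (background 6.44% and 3.7%). The peroxide-removing enzyme gene gpx1a read −0.21, −0.12 and −0.60 at 3 dpa, against 0.28, 0.04 and 0.43 at 2 dpa, a difference of −0.56 (SE 0.15, unadjusted p = 0.003514, limma). TCDD fins differed by −0.33. The glutathione transferase genes gsto2 and gstt1a read −0.33 (SE 0.10) and −0.62 (SE 0.25), both wholly below, beside 0.10 and −0.09 in TCDD fins.

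In lipid synthesis, acaca, which encodes the carboxylase that commits carbon to fatty acids, read 0.04, −0.11 and 0.17 at 3 dpa, against −0.45, −0.21 and −0.30 at 2 dpa. Its difference was 0.35 (SE 0.10, unadjusted p = 0.005548, limma), and 0.32 in TCDD fins. The sterol carrier gene stard4 differed by 0.29 (SE 0.11) and by 0.28 in TCDD fins. The list as a whole, 16 genes, had 10 lower and a median of −0.03. In the glycolysis list of 31 genes, 16 were lower. There pdk2b, a pyruvate dehydrogenase kinase gene, read 1.62, 0.42 and −0.02 at 3 dpa, against −0.43, −0.78 and 0.21 at 2 dpa. Its difference was 1.0045, and 0.53 without replicate 1 of 3 dpa.

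Clock genes were the list with the highest median difference, 0.11, with 20 of 29 higher at 3 dpa. The hour of collection is not given in the sources used here. The list levels were −0.10, 0.04 and −0.31 at 3 dpa, against −0.11, −0.32 and −0.34 at 2 dpa, so the days overlapped. The cryptochrome gene cry2 read −0.38, −0.07 and 0.06 at 3 dpa, against −0.60, −1.25 and −1.01 at 2 dpa, a difference of 0.82 (SE 0.26, unadjusted p = 0.01021, limma). Its second probe set read −0.13. The light-induced cryptochrome gene cry1a read 0.15, 1.11 and −0.60 at 3 dpa, against −0.18, −0.40 and −0.64 at 2 dpa, highest in the same pool as per2. Its difference was 0.63, against 0.18 without that pool, replicate 2, and 1.04 without replicate 3 of 3 dpa. TCDD fins had the opposite sign for cry1a (−0.56) and per2 (−1.05), and a list median of −0.12.

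The stress lists differed in how many members separated the days. Of 49 heat shock and chaperone genes, 8 lay wholly below and 4 wholly above at 3 dpa (background 6.44% and 3.7%). The list of p53 targets and apoptosis had 1 in each direction, and that of amino acid and endoplasmic reticulum stress had 2. Of the 49, 33 were lower with a median of −0.07 (−0.02 without replicate 3 of 3 dpa). The small heat shock protein gene hspb1 read 0.29, 0.61 and 0.50 at 3 dpa, against 0.78, 0.84 and 1.197 at 2 dpa, and the heat shock factor gene hsf2 read −0.11, 0.36 and 0.10, against −0.31, −0.49 and −0.77. Their differences were −0.47 (SE 0.23) and 0.64 (SE 0.29). Of 29 p53 target and apoptosis genes, 20 were lower with a median of −0.07, and the survival gene bcl2l10 differed by −0.92 (SE 0.40) with replicate 3 of 3 dpa and −0.35 without it. Amino acid and endoplasmic reticulum stress genes were even, 19 lower and 16 higher of 35. There slc3a2a, a subunit of amino acid transporters, differed by −0.38 (SE 0.14), with the days overlapping.

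Immune genes varied widely among pools. The complement gene cfd had the highest difference of any gene averaged over its probe sets, 1.92 (SE 0.72, unadjusted p = 0.02408, limma). It read 3.16, 1.31 and 4.69 at 3 dpa, against 0.22, 0.99 and 2.18 at 2 dpa, so the days overlapped, and the difference was 1.103 without replicate 3 of 3 dpa. The chemokine gene ccl25b read 2.67, 1.69 and 0.84 at 3 dpa, against 0.04, 0.66 and 1.23 at 2 dpa, a difference of 1.09 and of 0.62 without replicate 1 of 3 dpa. Of 39 inflammation and acute phase genes, 25 were lower with a median of −0.07, and without replicate 3 of 3 dpa 16 were lower with a median of 0.03. Of 19 antigen presentation genes, 14 were lower with a median of −0.10, and 7 with a median of 0.09 without replicate 3 of 2 dpa.

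Of 30 neutrophil and macrophage genes, 22 were lower with a median of −0.13, and 12 with a median of 0.03 without replicate 3 of 3 dpa. The list levels were 0.19, −0.02 and −0.50 at 3 dpa, against 0.11, −0.02 and −0.05 at 2 dpa. Of its defining genes, lyz, the lysozyme of leukocytes, read 1.06, 0.18 and −1.08 at 3 dpa, against 0.52, −0.28 and −1.32 at 2 dpa, and the leukocyte actin-bundling gene lcp1 read 0.11, −0.12 and −1.28, against 0.21, −0.20 and 0.37. The part of leukocyte content in the other lists that were low in the same pool was not tested.

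Markers of other tissues were read in the same way. Skeletal muscle genes had levels of −0.19, −0.04 and −0.31 at 3 dpa, against −0.28, −0.15 and −0.26 at 2 dpa, and 30 of 52 were higher with a median of 0.02. The fast troponin gene tnni2a.2 read 0.42, 0.50 and 1.02 at 3 dpa, against −0.17, −0.05 and −0.12 at 2 dpa, a difference of 0.75 (SE 0.17, unadjusted p = 0.001491, limma), beside 0.09 in TCDD fins. The muscle-defining genes ckma, mylpfa and tnnt3a differed by 0.17 (from −1.195 to 1.54), −0.02 and −0.09, and −0.12. Of 19 red blood cell genes, 12 were higher and 7 lower at 3 dpa with a median of 0.01, and 13 were inside 1.5-fold. In this list 0 genes lay wholly above and 1 wholly below (background 3.7% and 6.44% of all genes). A probe set of the globin gene hbae3 was higher at 3 dpa by 1.05 (SE 0.82), with the days overlapping. It read −3.45 on replicate 3 of 2 dpa, against 0.02 and −0.14 on the other arrays of that day. The erythrocyte carbonic anhydrase gene cahz read −0.30, 0.41 and 0.08 at 3 dpa, against 1.02, 0.86 and 0.80 at 2 dpa. That difference was −0.83 (SE 0.36, unadjusted p = 0.04405, limma), while alas2, which starts haem synthesis in these cells, differed by 0.07 and was inside 1.5-fold.

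Neural and eye genes had 23 of 37 inside 1.5-fold, where the share over all genes was 53.9%, and a median of 0.01. All 4 probe sets of the neuronal gene elavl3 were inside 1.5-fold, with median ratios of 1, 0.71, 0.59 and 0.40. Endothelial genes had 14 of 24 and a median of 0.00, with kdrl, the vessel growth factor receptor, at 0.01 and a median ratio of 0.87. Pigment cell genes had 13 of 21 and a median of −0.01, and the pigment regulator gene mitfa differed by 0.08. Liver, gut, pancreas and yolk genes had 40 of 54 and a median of 0.00. A median ratio of 1 in all probe sets, which went with wider intervals, held for 13 of the 37 neural and eye genes. It held for 13 of the 24 endothelial genes and 19 of the 54 liver, gut, pancreas and yolk genes. Whether the others were above background is not known. Notochord, lateral line and ionocyte genes had medians of 0.08, 0.04 and 0.01, with 7 of 16, 6 of 14 and 8 of 18 inside 1.5-fold. The small hatching gland list had a median of −0.10 over 5 genes.

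**Figure D4:**
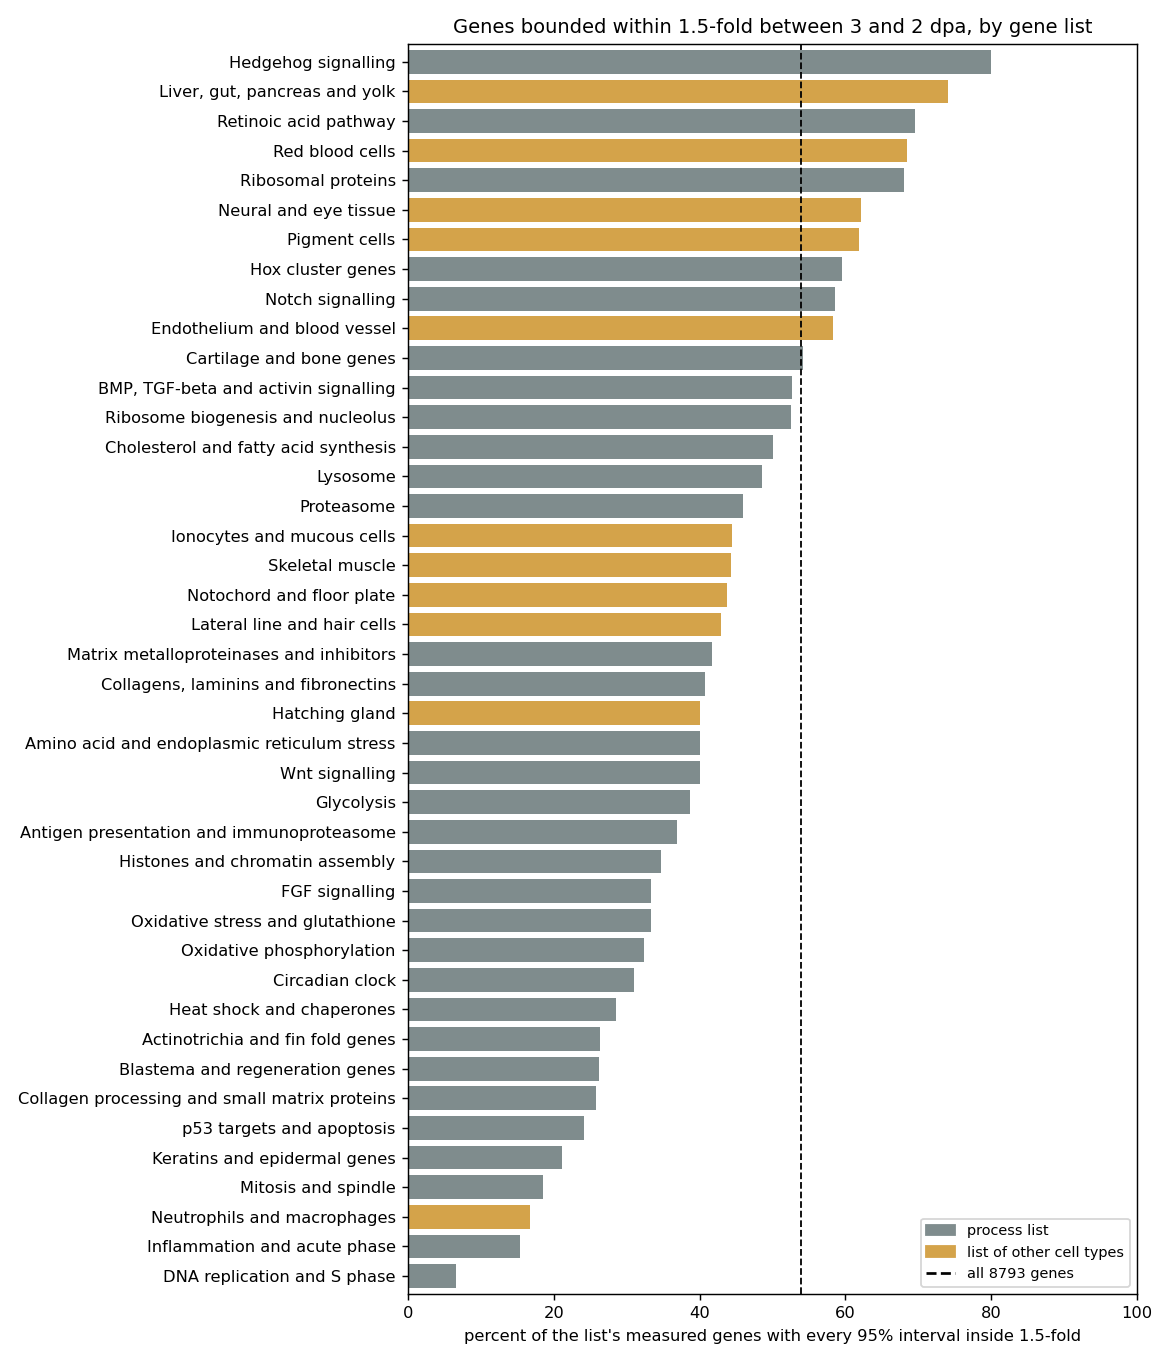
Share of each list's measured genes, in percent (x axis), whose 95% interval lay inside 1.5-fold for every probe set, for 42 lists (rows), with a dashed line at 53.9% for all 8793 genes. Hedgehog genes reach 80.0% and DNA replication genes 6.52%.

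The genes with the narrowest bounds were cops4, gjb9b, pcmtd1, ficd, snai1b and glg1a, each with an interval within 0.15 of 0 on 1 of its probe sets. For cops4, a subunit of the COP9 signalosome, that probe set read −1.92, −1.92 and −1.90 at 3 dpa, against −1.92, −1.91 and −1.92 at 2 dpa. In 4 of the 6 (cops4, gjb9b, snai1b and glg1a) the median ratio was below 1, and other probe sets of cops4, ficd, glg1a and pcmtd1 had wider intervals. Among probe sets with a median ratio of 1, the narrowest were those of pcmtd1, ficd, apoda.2, ckap5, med10 and ppp1r2, a list made after the values were seen. The first of these, pcmtd1, read −0.01, −0.01 and 0.01 at 3 dpa, against −0.03, 0.02 and 0.00 at 2 dpa. The ratios do not give the signal itself, so it cannot be said whether these probe sets were above background.

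The same step from 2 to 3 dpa in TCDD-treated fins shares no array with the vehicle comparison. There limma also called 0 of 15502 probe sets, with 621 at an unadjusted p under 0.05 (4.01%) and a lowest adjusted p of 0.983. The test of whether the day effect differed between TCDD and vehicle fins called 0, with 226 at an unadjusted p under 0.05 (1.46%) and a lowest adjusted p of 0.9999. The mean of the day effects over both exposures, 6 arrays against 6, called 0, with 997 at an unadjusted p under 0.05 (6.43%) and a lowest adjusted p of 0.7424.

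Across all probe sets the day effects in TCDD and in vehicle fins had a correlation of 0.37 and the same sign in 61.3%. Of the 578 probe sets at an unadjusted p under 0.05 in vehicle fins, 447 (77.3%) had the same sign in TCDD fins. Replicate 3 of vehicle 3 dpa and replicate 2 of TCDD 3 dpa were correlated with each other at 0.42 and both had high hybridisation controls (0.29 and 0.34). Replicates 1 and 2 of vehicle 3 dpa also had high controls (0.26 each). They were correlated with that TCDD array at −0.26 and −0.19. Without vehicle 3 dpa replicate 3 and TCDD 3 dpa replicate 2 the correlation of the day effects was 0.19. The same sign was then found in 56.5%. Among the genes described here, acaca (0.35 in vehicle and 0.32 in TCDD fins), ptmaa (−0.39 and −0.36), hoxc9a (−0.47 and −0.48), gjb8 (−0.9996 and −0.81) and gpx1a (−0.56 and −0.33) had the same sign in both, and slc14a2, per2, lamb4 and cln3 did not. These examples were chosen after their values were seen. The probe sets are not independent, and the correlation has no p.

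**Figure D5:**
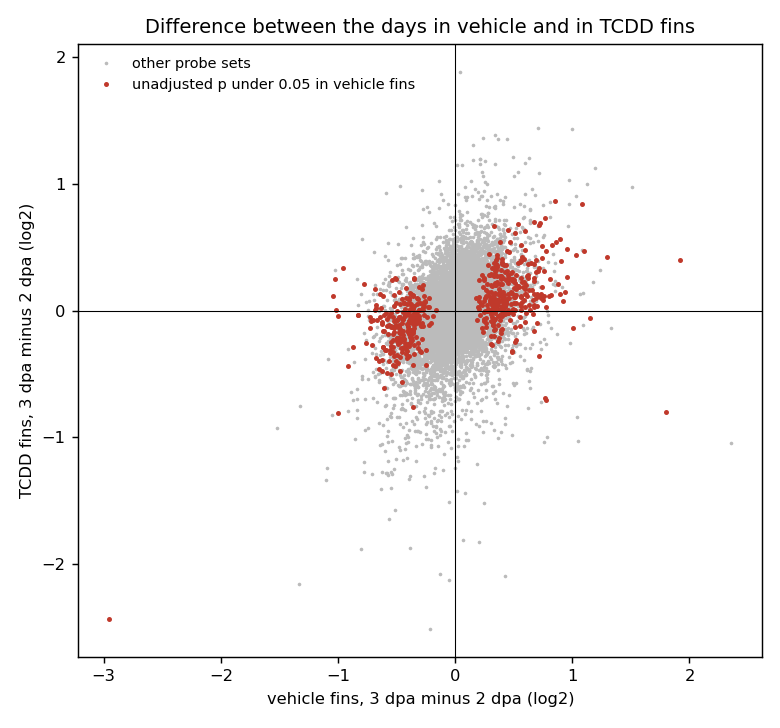
Difference between 3 and 2 dpa (log2) in TCDD fins (y axis) and vehicle fins (x axis) for 15502 probe sets, with the 578 at an unadjusted p under 0.05 in vehicle fins in red. Most points lie within 1 of 0 on both axes, and 77.3% of the red points share their sign.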

How the data were processed

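The 12 Affymetrix zebrafish arrays were assigned to 4 groups of 3 from their titles. The submitters' processing notes name GCRMA, without a version, and the values the authors deposited are linear ratios. How they were scaled is not stated. Read from the values, the median of a row over the 12 arrays is 1 in 12064 of 15617 rows, below 1 in 3553 and above 1 in 0, which is what dividing by the row median with a floor on the divisor would give. Signal over background is therefore not known. Per the labels' protocols, 100 ng of RNA went through a kit with 2 rounds of amplification.

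Ratios were used on the log2 scale without a pseudocount, and tests left out 115 control probe sets. In the platform annotation 10795 probe sets have 1 symbol, 135 several and 4572 none. Entrez identifiers linked 10711 of the first to current symbols of the GRCz12tu gene table. Group means were fitted with limma 3.58.1 in R 4.3.3 to all 12 arrays (8 residual degrees of freedom, prior 2.08), and two-sided p-values were Benjamini-Hochberg adjusted over 15502 probe sets. An exact permutation test of 3 arrays against 3 cannot go below 0.1. The fit was tested on simulated data.

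The comparison and the gene lists were chosen with earlier results of these data known. Most genes were drawn by rule. The rules took up to 12 per direction that differ by at least 1 (log2) without overlap, with 1 symbol that is no clone name. They also took the 4 lowest p and 2 narrowest intervals of each list, the 6 narrowest of all and defining markers. Genes said to be named for their role were added. Not every gene drawn for a list is described, and some described genes, such as ccnb1 and plk1, were not drawn for theirs.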

Additional observations from a re-analysis of the deposited data

Results flagged for a closer look

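The hybridisation control probe sets, which were left out of the tests because they read labelled transcripts added for hybridisation, differed between the days. Their mean log2 ratio was 0.272 on the vehicle 3 dpa arrays and −0.057 on the vehicle 2 dpa arrays, a difference of 0.329 between groups that did not overlap. Of the 6 TCDD arrays, TCDD 3 dpa replicate 2 read 0.34 and the other 5 read between −0.12 and −0.07. Its part in the differences between the days was not tested within the vehicle fins, where it cannot be told apart from the day.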

How the results depend on the processing

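The count of 0 called probe sets held for the vehicle comparison, the mean over both exposures and the difference between exposures under all alternatives run (without each array in turn, 0 to 0). For the vehicle comparison, unadjusted p under 0.05 was reached by 315 to 883 probe sets when single arrays were left out, by 1282 with the hybridisation control level as a covariate and by 893 in the fit to the 6 vehicle arrays, against 578. Intervals inside 1.5-fold numbered 7279 to 9525 without single arrays, 4910 with that covariate and 5674 among probe sets with a median of 1, which tests fewer, against 9004. Within groups the control level varied most in TCDD 3 dpa, at −0.07, 0.34 and −0.08, so the covariate rests largely on replicate 2 of that group. The covariate turned the sign of stau2 (0.1482), pafah1b1a (0.2151), hoxa13b (0.0065) and col6a3 (−0.1661) and of 17 of 42 list medians. It left fzd2 at −0.01 and rarga at −0.02, and it moved 37 of 61 genes given with a difference by over 1.5 times. Quantile normalization turned 10 list medians, and leaving out replicate 3 of 3 dpa turned 14 and moved 20 of those genes by that much. The cause was not tested. The titles do not say whether same-numbered arrays belong together, and the main fit did not pair them. Deviations from the group means were correlated at −0.01, 0.17 and 0.23 for same-numbered vehicle arrays. For vehicle arrays with different numbers they were correlated at −0.39 to 0.38, which does not settle whether the numbers pair the samples. With a replicate block there were 0 called, 681 at an unadjusted p under 0.05 and 9167 inside 1.5-fold. List counts without single arrays, and the correlation of day effects without 2 arrays, were added after the data were seen.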
